A study of Caenorhabditis elegans with 2 samples.

Results

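The mir-51 family of Caenorhabditis elegans consists of 6 microRNA (miRNA) genes, named cel-mir-51 to cel-mir-56 in the annotation and mir-51 to mir-56 below. They were taken by name from the 261 annotated miRNA genes, and the other 255 serve as their background. The family was chosen by the strength of the peaks already known to lie near its genes, in the same lists that are described here. The sites recovered with the transcription factor TTX-3 were profiled by chromatin immunoprecipitation and sequencing (ChIP-seq), in which an antibody pulls down a protein with the DNA cross-linked to it and the recovered fragments are sequenced. There was 1 group of 2 biological replicates. It was hermaphrodite late embryos of the transgenic strain OP68 (unc-119(ed3) III; wgIs68), taken whole 4 hours after synchronization by egg bleaching. The strain carries a stable transgene for TTX-3 with GFP and FLAG at its C terminus, an antibody against GFP was used, and chromatin was sonicated. The labels do not name the promoter of the transgene, and whole embryos mix the cells that carry the fusion protein with all others. No other strain, stage or untagged sample was analysed here, so the family is set against other genes and the replicates against each other.

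MicroRNAs are short RNAs cut from hairpin precursors by the Drosha and Dicer nucleases and loaded into Argonaute proteins, which they guide to messenger RNAs that pair with their seed, the bases near their 5′ end. The mir-51 family is broadly expressed from the embryo on. Loss of the whole family is lethal during development, and attachment of the pharynx, through the cadherin gene cdh-3, is one process known to need it. TTX-3 is a LIM homeodomain protein known for specifying the AIY interneurons of the thermosensory circuit. These statements are background and were not measured here.

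What joins the members is the seed, bases 2 to 8 of the mature RNA, shown in capitals below. The sequences were read from the WBcel235 (ce11) genome of RefSeq at the annotated positions of the mature arms.
mir-51: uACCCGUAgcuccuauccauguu
mir-52: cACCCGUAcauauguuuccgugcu
mir-53: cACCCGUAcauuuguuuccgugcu
mir-54: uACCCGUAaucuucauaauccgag
mir-55: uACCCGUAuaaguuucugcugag
mir-56: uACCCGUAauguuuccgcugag
Of the 260 annotated miRNA genes with mature arms, 458 arms in all, exactly these 6 genes had the seed ACCCGUA, which is also that of the vertebrate miR-100. The arm that carries it is the 5′ arm of the hairpin in mir-51, mir-52 and mir-53, and the 3′ arm in mir-54, mir-55 and mir-56. Compared position by position over the whole arm, seed included, the 15 pairs had an identity of 39.1% to 95.8%, with a median of 47.8%. The lowest was that of mir-54 and mir-55, with 9 of 23 bases identical, of which 8 are the first bases of the arm. The closest pair was mir-52 and mir-53, with 23 of 24 bases identical, and these lie at different loci. Each of the 6 opposite arms had a seed that no other annotated miRNA gene shares.

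The 6 genes occupy 3 loci. mir-51 (IV:11026013-11026112, minus strand) and mir-53 (IV:11027593-11027691, minus strand) lie 1481 bp apart, with mir-53 upstream of mir-51 in the direction of transcription. mir-52 (IV:14034008-14034107, plus strand) stands alone. mir-54 (X:13144996-13145094), mir-55 (X:13144827-13144924) and mir-56 (X:13144691-13144787) follow one another within 404 bp of the minus strand, with gaps of 72 and 40 bp. Genes of a locus share the summits around them, so the counts below rest on 3 independent places at most.

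The data are lists of peaks, which the authors' caller made. A summit is the position of highest enrichment in a peak, and signal is the strength the caller gave the peak with a control sample as its background. Signal has no stated scale between lists, so it is used here for order within a list and for setting the replicates side by side. The pooled list (both replicates together) and the list of each replicate hold 30000 regions each, and most of these are weak by design: the median signal was 26.9 in the pooled list, 15.5 in replicate 1 and 16.8 in replicate 2. The optimal list holds the 700 regions that the authors kept after a test of reproducibility, the irreproducible discovery rate (IDR), with signals of 72.5 to 1792. At the family's peaks the rank in the optimal list equalled that in the pooled list. A pooled signal at or above the weakest optimal one lay near 21 other miRNA genes, and an optimal summit near 21. An optimal summit is thus read here as a strong pooled one, and matches in the replicates are given separately. The lists carry no read counts, so sequencing depth cannot be given, nor an error from it. The replicates are the only measure of spread.

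Every member had an optimal summit within 2000 bp of its hairpin, and the peak next to mir-51 was the strongest at any annotated miRNA gene in all 4 lists. In the optimal list 6 of 6 members had a summit, against 21 of 255 other miRNA genes (8.24%; exact Clopper-Pearson 95% interval 5.17% to 12.3%) and 5.98% of 19985 protein-coding genes. In the pooled list 6 of 6 members had one, against 165 other miRNA genes (64.7%) and 70.1% of protein-coding genes. For protein-coding genes a summit anywhere in the gene or within 2000 bp of it was counted. Their window thus grows with gene length, and their shares are not on the same footing as those of miRNA genes. The share in replicate 1 was 6 of 6 members and 69.8% of the others, and in replicate 2 it was 6 of 6 members and 75.3% of the others. Since these peaks led to the choice of the family, the members' counts are a description and were not tested. The interval covers counting error only, since miRNA genes that lie close together share summits. Counted by locus, 3 of 3 family loci and 15 of 211 other miRNA loci (7.11%) had an optimal summit. Positions within 2000 bp of an optimal summit made up 2.59% of the nuclear genome, and those within 2000 bp of a pooled summit 61.9%, so a pooled summit alone says little of any gene.

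In all, the members had 11 pooled summits within 2000 bp, 3 to 5 for each gene, of which 5 were optimal. The regions of those 115 bp upstream of mir-53, 163 bp downstream of mir-52 and 180 bp upstream of mir-54 overlapped an optimal region. The 11 summits need not be separate sites. Of these 11, both replicates had a summit within 100 bp for 7, replicate 1 alone for 3 and replicate 2 alone for 1. Of the 5 optimal ones, 4 were in both replicates, and the fifth, in the mir-54 hairpin, was in replicate 1 alone. Across the whole optimal list 647 of 700 were in both.

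**Figure D1:**
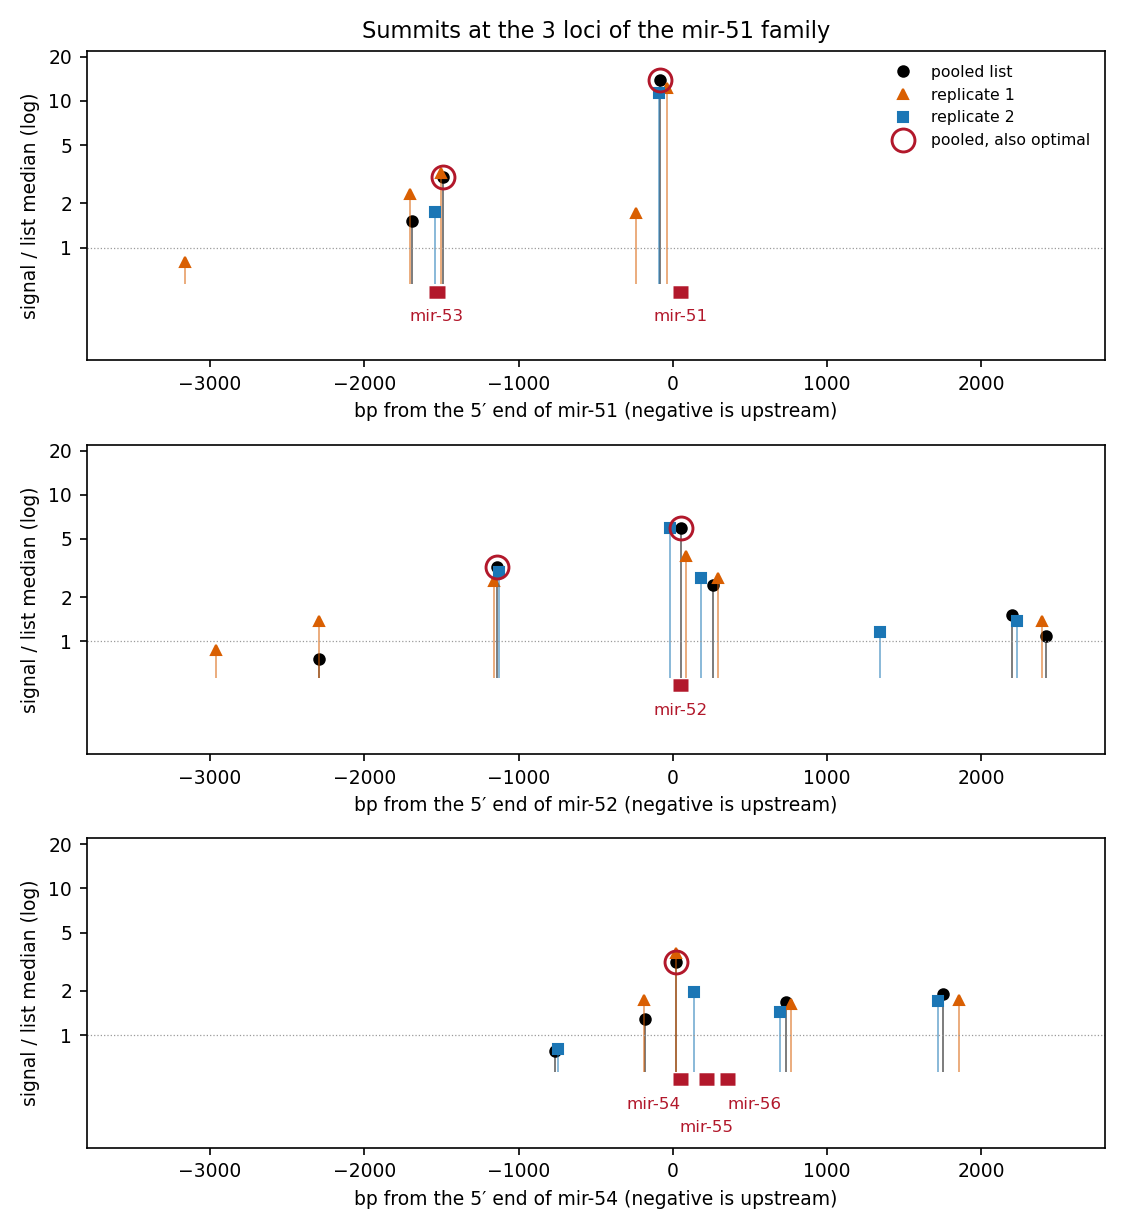
Summits of the pooled list (circles), replicate 1 (triangles) and replicate 2 (squares) along the 3 loci, by distance in bp from the 5′ end of mir-51, mir-52 or mir-54 and by signal over the median of the same list (log axis). Red rings mark the 5 optimal summits and red bars the hairpins. At mir-51 the highest symbol stands 85 bp upstream (pooled). At mir-52 it is that of replicate 2, 16 bp upstream at 5.95 times the median, next to the pooled one in the hairpin at 5.93. All summits of the mir-54 locus stay under 4 times the median.

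The mir-51 peak was the highest of the family. The peak next to cel-mir-51 covered IV:11025909-11026343, which includes the whole hairpin, and its summit lay at 11026197, 85 bp upstream of the 5′ end of the hairpin. There the annotation has F36H1.17, a short noncoding RNA gene on the same strand that ends 19 bp upstream of mir-51. Its signal was 375 in the pooled list, rank 22 of 30000. In replicate 1 it had 190.5 (rank 27), with the summit 48 bp from the pooled one, and in replicate 2 it had 191 (rank 14), with the summit 2 bp away. The peak had 12.3 times the list median in replicate 1 and 11.4 times in replicate 2. The ratio of the deposited signals, replicate 1 over replicate 2, was 0.996, and since the lists share no stated scale such ratios are read here only against those of other optimal peaks. The sequence around the pooled summit, read along the minus strand of mir-51 (IV:11026147-11026247), is shown because it is the only one of the 5 optimal summit windows that held any of the 4 motifs searched, GTTCGA, in capitals.
mir-51 summit window: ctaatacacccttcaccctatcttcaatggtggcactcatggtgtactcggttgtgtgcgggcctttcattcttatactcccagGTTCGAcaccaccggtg

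Only 21 optimal peaks were stronger than that of mir-51. Of these, 6 were mitochondrial, 8 had a gene for a small nucleolar RNA (snoRNA) within 100 bp of the summit, 2 had a transfer RNA (tRNA) gene there, and 5 had none of these. No tRNA, snoRNA or small nuclear RNA (snRNA) gene lay near the family: from the members' 11 pooled summits the nearest one was 18995 to 56950 bp away. The next optimal summit outside the locus of mir-51 and mir-53 was 91531 bp away, that outside mir-52 was 20180 bp away and that outside the mir-54 locus 23422 bp away. Around each locus there was thus no further optimal summit for at least 20180 bp.

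The hairpin of cel-mir-53 had a weaker peak of its own. It covered IV:11027376-11027825, with the summit at 11027601, base 91 of the 99 of the hairpin. Its signal was 81.6 in the pooled list (rank 562), with 50.01 (rank 483) in replicate 1 and 29.5 (rank 1867) in replicate 2. The replicates differed by a ratio of 1.69, just above the 90th percentile of 1.67 for all optimal peaks found in both, whose median was 1.07. In replicate 2 the summit lay 53 bp from the pooled one and the authors' −log10 q-value was 0.385, against 1.75 in replicate 1. A further pooled summit 115 bp upstream of mir-53 had a signal of 41.0 (rank 3713), with 2.32 times the list median in replicate 1 and none in replicate 2, and it is not in the optimal list. Since mir-53 lies 1396 bp from the mir-51 summit, its strongest summit within 2000 bp is that of mir-51, and 81.6 is the value for its own hairpin.

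The locus of cel-mir-52 had 2 optimal peaks. The stronger was at the hairpin itself (IV:14033988-14034121), with its summit at 14034063, base 56 of the 100 of the hairpin, between the mature arms. This summit also lies in the noncoding RNA gene WBGene00199919, which overlaps mir-52 on the other strand. Signal was 159.6 in the pooled list (rank 167), 59.6 in replicate 1 (rank 343) and 99.7 in replicate 2 (rank 98). The replicates differed more here than at mir-51, with a ratio of 0.598, below the 10th percentile of 0.733 over all optimal peaks. The region was 134 bp wide, and only 10 of the 700 optimal regions were narrower, while 84.9% had the common width of 450 bp. The narrow shape was not seen in the replicates, where both regions had the common width of their list, 470 and 440 bp, and their summits lay 33 and 71 bp from the pooled one.

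The second optimal peak of mir-52 was centred 1137 bp upstream, at IV:14032646-14033095, within the noncoding RNA gene WBGene00198798. It had a signal of 86.4 in the pooled list (rank 501), 40.1 in replicate 1 (rank 770) and 49.7 in replicate 2 (rank 400), a ratio of 0.807. Another summit, 163 bp downstream of the hairpin, had 65.3 (rank 893), with 42.1 and 45.5 in replicates 1 and 2, and fell below the weakest optimal peak. It overlapped the hairpin peak, and the smallest distance between summits of a list was 199 bp.

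At the locus of cel-mir-54, cel-mir-55 and cel-mir-56 a single optimal peak was shared by all members. It covered X:13144850-13145299, with the summit at 13145075, base 20 of the 99 of the mir-54 hairpin, 151 bp upstream of mir-55 and 288 bp upstream of mir-56. Its signal was 85.2 in the pooled list (rank 510). Replicate 1 had 56.6 (rank 382) at the same base. Replicate 2 had no summit within 100 bp of it. Its nearest, 115 bp away between the hairpins of mir-54 and mir-55, had 33.0 (rank 1193). It was the only one of the family's 5 optimal summits with no match in replicate 2. Without replicate 1, among the 700 strongest peaks of replicate 2 alone, mir-54, mir-55 and mir-56 had none. There mir-51 and mir-52 had one, and mir-53 had one only through the mir-51 summit, since the peak in its own hairpin was at rank 1867.

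Around these 3 hairpins lay 4 weaker pooled summits, none of them optimal. Those 328 and 1351 bp downstream of mir-56 had 44.8 (rank 2667) and 51.5 (rank 1680) in the pooled list. Both replicates had summits there, with 25.5 and 26.8 in replicate 1 and 24.0 and 28.8 in replicate 2. The summit 180 bp upstream of mir-54 had 34.7, with 27.0 in replicate 1 and none in replicate 2. The one 767 bp upstream had 20.9, below the median of the pooled list, with 13.4 in replicate 2 and none in replicate 1.

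**Figure D2:**
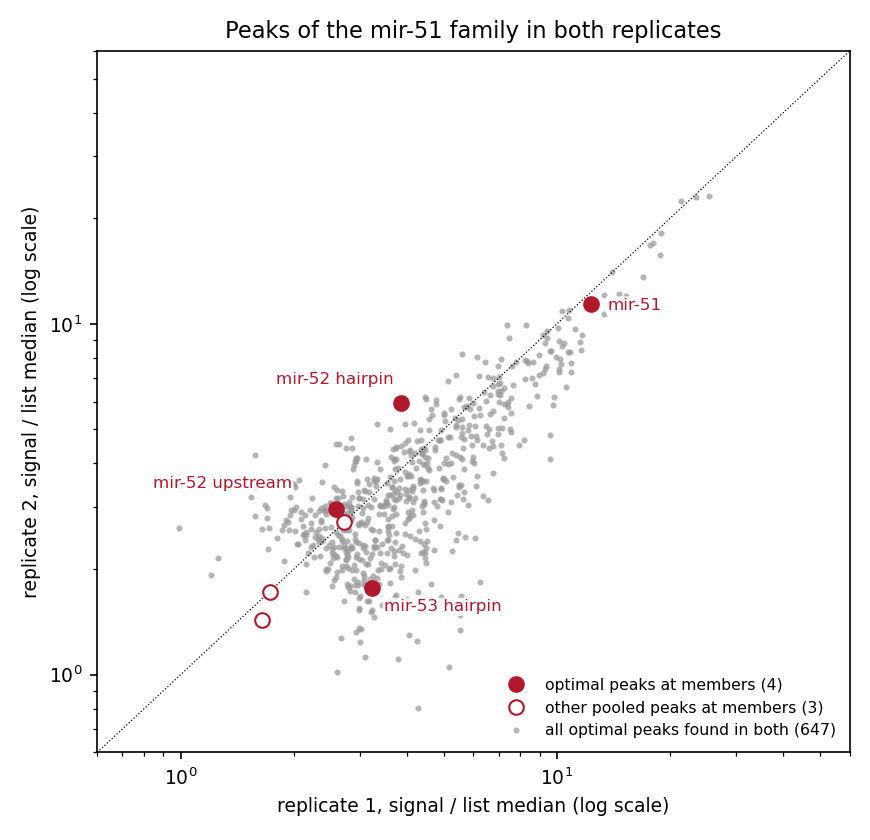
Signal over the median of the list in replicate 1 (x axis) and replicate 2 (y axis), both on log axes, for pooled peaks of the mir-51 family found in both replicates (filled red circles are optimal, open ones are not) and for the 647 optimal peaks found in both (grey). The mir-51 peak stands at 12.3 and 11.4, the mir-52 hairpin lies above the dotted line of equal values and the mir-53 hairpin below it.

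Hairpins that held an optimal summit are printed because such a position was rare among miRNA genes. The arm with the family seed is in capitals, and the sequences read as the RNA does, with T in place of U.
mir-52: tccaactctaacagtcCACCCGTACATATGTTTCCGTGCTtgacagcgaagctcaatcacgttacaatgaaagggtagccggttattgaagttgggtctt
mir-53: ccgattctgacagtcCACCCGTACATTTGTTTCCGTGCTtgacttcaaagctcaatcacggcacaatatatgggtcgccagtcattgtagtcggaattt
mir-54: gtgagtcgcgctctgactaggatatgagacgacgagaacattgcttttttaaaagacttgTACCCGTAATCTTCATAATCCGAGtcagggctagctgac
An optimal summit lay inside the hairpin for these 3 members and for 1 of 255 other miRNA genes (0.392%), mir-5549. The summits of replicate 2 lay outside it, 16 bp upstream of mir-52 and 36 bp downstream of mir-54. In both replicates a summit was inside the hairpin at mir-53 and mir-5549 only, so this position was not fixed to within a hairpin's length. Within 300 bp there was an optimal summit for 6 of 6 members and for 5 others (1.96%), which were mir-2, mir-4932, mir-5549, mir-5595 and mir-55b. The gene mir-55b overlaps mir-55 on the opposite strand and so shares its summits. Within 1000 bp the counts were 6 members and 13 others (5.1%). The median distance of the other miRNA genes from an optimal summit was 54592 bp. The distance of 2000 bp was part of the rule by which the family was described, while the hairpin and 300 bp were chosen after the data were seen. The farthest pooled summits that 2000 bp takes in lay 1694 bp from mir-51 and 1656 bp from mir-54. Just outside it lay a pooled summit 2100 bp downstream of mir-52, with 40.6 (rank 3852), and one 2295 bp upstream of it, with 20.3.

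**Figure D3:**
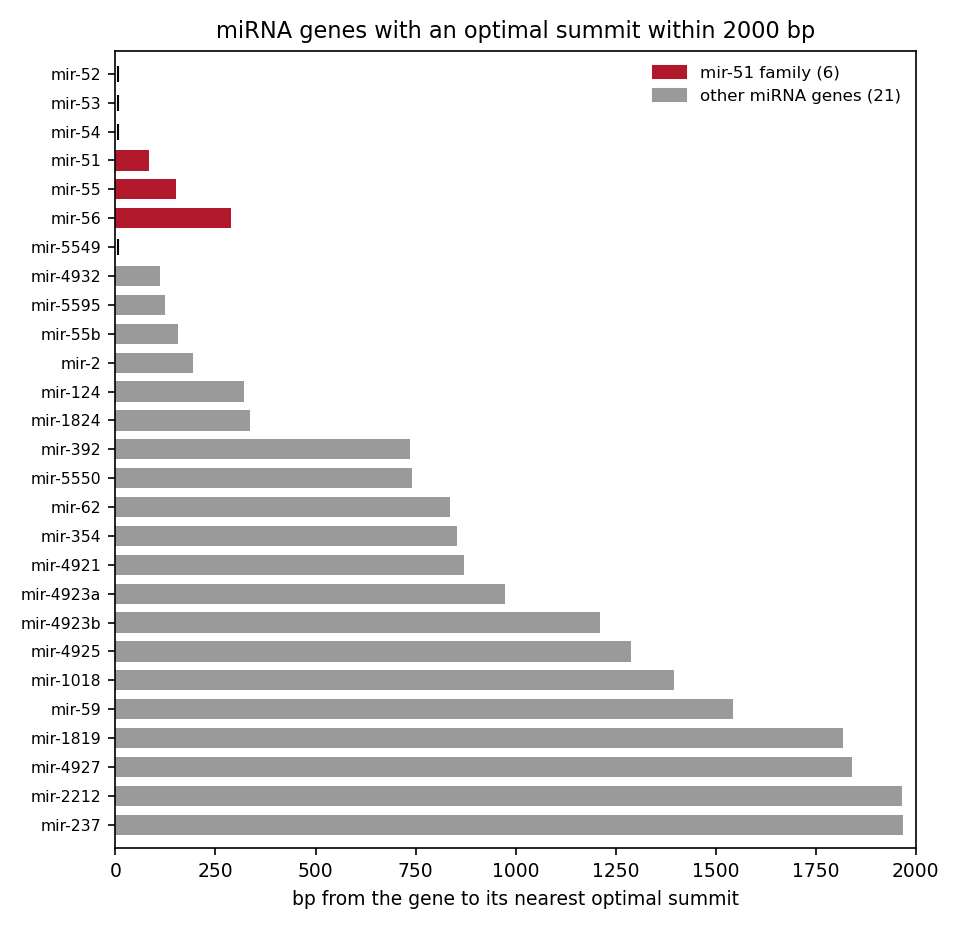
Distance in bp from each miRNA gene to its nearest optimal summit, for the 6 members of the mir-51 family (red) and the 21 other miRNA genes with one within 2000 bp (grey); a black tick marks a summit inside the hairpin. Members lie at 0 to 288 bp, and 16 of the 21 others lie farther than 300 bp.

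Set in order of their strongest pooled summit within 2000 bp, the members spread over the upper part of all miRNA genes. The members had 85.2 to 375 with a median of 122, counting each gene, and the 165 other miRNA genes with a pooled summit had 19.7 to 216 with a median of 35.3 and quartiles of 27.6 and 48.1. In these values mir-53 counts with the 375 of the mir-51 peak, and mir-54 to mir-56 share 1 peak. The peak in the mir-53 hairpin had 81.6, and with that value both the lowest value and the median of the members would be lower. By locus, mir-51 with mir-53 was first of 138 miRNA loci with a pooled summit, mir-52 was at place 3 and mir-54 to mir-56 at place 12. In replicate 1 the places were 1, 7 and 8 of 155, and in replicate 2 they were 1, 3 and 27 of 160. The place of mir-51 was thus the same in both replicates, and that of the mir-54 locus differed most.

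Of the other miRNA genes only mir-237, of the lin-4 family, had a stronger optimal summit than mir-52, and 14 had a stronger one than mir-54. That of mir-237 had 216 (rank 90) but lay 1968 bp from the gene, which has 7 tRNA, snoRNA or snRNA genes within 2000 bp. Next came mir-1819 and mir-2212, which share a summit of 132, 1818 and 1965 bp away, with 4 such genes within 2000 bp. The hairpin of mir-5549 held one of 121 (rank 280), with 68.2 in replicate 1 and 48.7 in replicate 2. mir-354 (113) and mir-62 (109) lie inside the protein-coding genes rps-20 and ugt-50. The cluster of mir-1018, mir-4921, mir-4923a, mir-4923b and mir-4925 shared a summit of 104.9, which gives 11 names for 10 places because of the tie. Over the 21 others with an optimal summit, 8 had a tRNA, snoRNA or snRNA gene within 2000 bp and 9 lay inside a protein-coding gene. Of all 255 other miRNA genes, 232 had no such small RNA gene within 2000 bp and 103 lay inside a protein-coding gene. Of the members, 0 had such a small RNA gene and 3, mir-54 to mir-56, lay inside a protein-coding gene, F09A5.3, on the opposite strand. Without the miRNA genes near tRNA, snoRNA or snRNA genes, the share of the others was 5.6%.

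**Figure D4:**
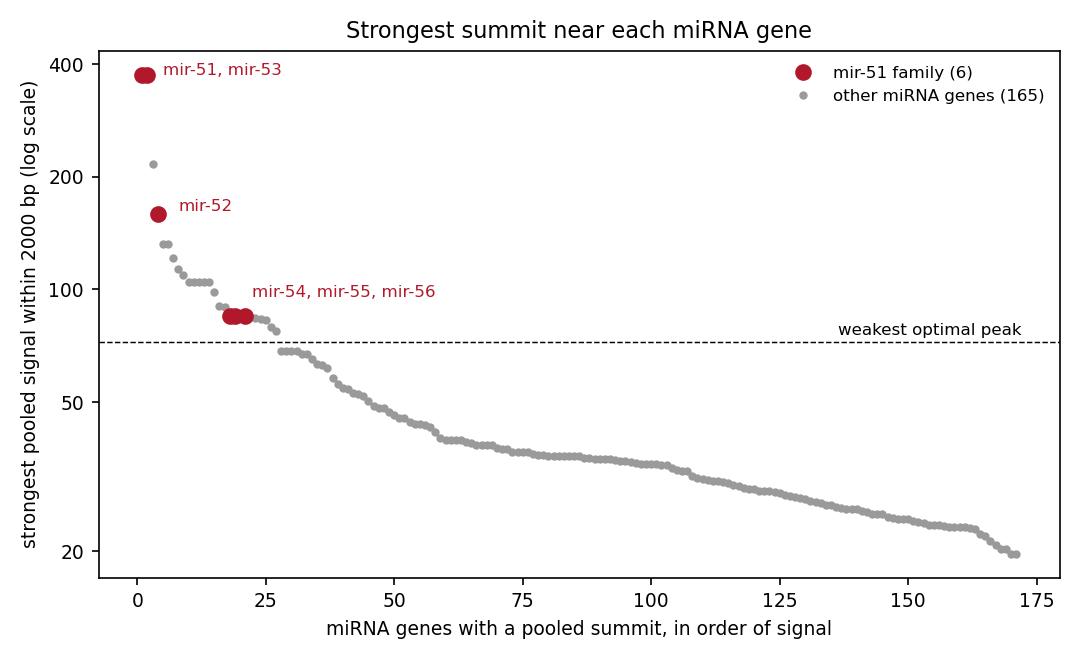
Strongest pooled signal within 2000 bp (log axis) of each miRNA gene with a pooled summit, in order of signal, for the 6 members of the mir-51 family (red) and 165 other miRNA genes (grey). The dashed line is the weakest optimal peak. mir-51 and mir-53 share the first value of 375, mir-52 has 159.6, and mir-54, mir-55 and mir-56 share 85.2.

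Other miRNA families known in worms mostly lacked optimal summits. The let-7 family, which times larval development, had 0 of 4 members with one, and let-7 itself had a pooled signal of 65.1. The lin-4 family, also a timing regulator, had 1 of 2, mir-237. The mir-35 family, which is made in the early embryo, had 0 of 8, and all 8 had weak pooled summits of 35.96 or 36.7 nearby. The mir-58 family, among the most abundant in worms, had 0 of 5, with 61.7 at mir-58a, and the mir-44 family had 0 of 4. Among 10 miRNA genes chosen singly, 2 had an optimal summit: mir-124, a miRNA of sensory neurons, with 98.4 (rank 404), and mir-2 with 90.1 (rank 463). These 2 genes lie inside the protein-coding genes trpa-1 and ppfr-1, and their summits were 321 and 193 bp away from them. Those counts stand against 6 of 6 for the mir-51 family and 8.24% for all other miRNA genes. Families whose genes lie in clusters share summits, and no difference between families was tested.

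A list of 18 protein-coding genes of miRNA processing, action and targets was read in the promoter window, between 1000 bp upstream and 300 bp downstream of a 5′ end. An optimal summit lay there for 2 of 18 (11.1%), against 601 of 19985 protein-coding genes (3.01%). The genes were vig-1, which encodes an RNA-binding protein of the RNA-induced silencing complex, with 109.7 (rank 338), and alg-5, which encodes an Argonaute protein, with 90.5 (rank 460). Among the 16 without one were drsh-1 and dcr-1, which encode Drosha and Dicer, the main miRNA Argonautes alg-1 and alg-2, and cdh-3. A weaker pooled summit lay in the window for dcr-1 (20.8) and alg-1 (28.6), and none for drsh-1, alg-2 and cdh-3. In all 13 of the 18 had a pooled summit there.

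The neighbours of the members were few at the locus of mir-51 and mir-53. There alh-3, an aldehyde dehydrogenase gene, ends 143 bp from mir-51, and hrg-5, of the heme-responsive gene family, lies 598 bp upstream of mir-53. The 5′ end of hrg-5 is the nearest one of a protein-coding gene and lies 3073 bp from the 5′ end of mir-51 and 1494 bp from that of mir-53. Around mir-52 the annotation has 7 noncoding RNA genes and 8 piRNA genes within 2000 bp, and the nearest protein-coding 5′ end, of Y37A1B.7, is 9772 bp away. The mir-54 locus lies within F09A5.3, whose 5′ end is 3493, 3323 and 3186 bp from those of mir-54, mir-55 and mir-56, and the short noncoding RNA gene F09A5.11 lies 119 bp upstream of mir-54. The 5 optimal summits thus lay outside the promoter windows of protein-coding genes. A peak cannot be assigned to the miRNA rather than to the noncoding RNA genes that overlap its summit.

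In sequence, the optimal summits of the family had few of the words searched. In windows of 50 bp to each side of the summit, on both strands, TAATTA (the core of LIM homeodomain sites) was in 0 of 5, TAATTG in 0, GCGCAC in 0 and GTTCGA in 1. Over all 700 optimal summits the shares were 5.29%, 7.0%, 13.9% and 15.4% in that order, and over the 15000 weakest pooled summits 6.7%, 8.78%, 1.57% and 3.09%. With 5 windows, shares of this size were not detectable. TAATTA and TAATTG differ only in their last letter, and GCGCAC and GTTCGA were picked earlier for their frequency at these peaks. The word GTTCGA was at 42.4% of optimal summits with a tRNA gene within 100 bp and at 26.9% of those with a snoRNA gene there. It was at 5.02% of those with no gene of the classes counted. The mir-51 window held it with no tRNA or snoRNA gene near. Among the other 6 pooled summits of the members, TAATTG was in 2 windows and GCGCAC in 1. Median GC content was 45.5% at the family's optimal summits, 48.5% over all optimal summits and 31.7% over the weakest.

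The 300 bp before the 5′ end of the hairpins were searched for the same words. There GCGCAC was in 2 of 6 members (mir-51 and mir-54) and in 8.63% of 255 other miRNA genes, GTTCGA in 1 and 13.3%, TAATTA in 0 and 9.02%, and TAATTG in 0 and 15.3%. Median GC content there was 47.7% in the members and 38.3% in the others. The absence of a word says only that these letters are not in the window. To see whether the peaks have exact copies elsewhere, words of 36 bp were taken every 10 bp across the 5 optimal regions. All of them, 40 at mir-51, 42 at mir-53, 42 and 10 at the upstream and hairpin peaks of mir-52, and 42 at mir-54, were found once in the genome. Similar sequences that are not identical were not searched, so reads placed with mismatches are not covered.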

How the data were processed

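TTX-3-GFP ChIP-seq of whole late embryos was available as peak lists of 2 biological replicates. The deposited ce11 lists give a signal value and the −log10 of a q-value for each region, and a summit. Per the deposited descriptions, the authors made the list of a replicate from its alignments and a control, the pooled list from both replicates, and the optimal list from those. Aligner, peak caller and IDR threshold: not given in the sources used here. Lists on ce10 were not used, since coordinates were not converted.

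Summits were placed on WBcel235 with the Ensembl 115 annotation. A gene had a summit when one lay within 2000 bp of it, and a replicate shared a pooled summit when its own lay within 100 bp. miRNA genes under 2000 bp apart formed a locus. Named are the members, every gene within 2000 bp of them with the nearest protein-coding 5′ end, the 10 other miRNA genes with the strongest optimal summit, and members of the comparison lists that had one; genes of those lists without one were also named after their values were seen. The members and lists were chosen with earlier results of these data known. With 1 group no test was made; intervals are exact Clopper-Pearson (95%) and cover counting error only. The search for summits was tested on simulated positions. The tools were scipy 1.17.1, pandas 2.3.3 and numpy 2.4.6 under Python 3.11.15, with matplotlib 3.10.9 for the plots. The alternatives were other distances, each replicate alone, the stronger 350 optimal peaks and other sets of miRNA genes.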

Additional observations from a re-analysis of the deposited data

How the results depend on the processing

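All 6 members had a summit within 500, 1000 and 5000 bp in each of the 4 lists as well. With 1 replicate left out, its optimal list replaced by the 700 strongest peaks of the other, the number with an optimal summit was 3 to 6: it was 3 without replicate 1, when the mir-54 locus had none and mir-53 had one only through the mir-51 summit, and 6 without replicate 2. With the stronger 350 optimal peaks it was 3, namely mir-51, mir-52 and, only through the mir-51 summit, mir-53. The other miRNA genes with one of these 350 peaks were mir-237, mir-1819, mir-2212, mir-5549, mir-354 and mir-62. With summits inside the hairpin the number of members was 3, namely mir-52, mir-53 and mir-54. The share of other miRNA genes with an optimal summit was 0.392% inside the hairpin, 1.96% within 300 bp, 2.75% within 500 bp, 5.1% within 1000 bp, 14.1% within 5000 bp, and 2.35% in the promoter window taken at the hairpin's 5′ end. It was 5.88% to 9.02% with a replicate left out. Their share with a pooled summit was 35.3%, 49.0% and 86.3% within 500, 1000 and 5000 bp. The strongest pooled signal of mir-53 was 81.6 within 500 and within 1000 bp, since the mir-51 summit lies farther away. With replicate summits required within 50 bp, those of replicate 2 at the hairpins of mir-52 and mir-53 were no longer matched and gave no value. With the strongest summit within 2000 bp taken in place of the matched one, mir-53 had 190.5 in replicate 1 and 191 in replicate 2, the values of the mir-51 peak, in place of 50.01 and 29.5. The remaining alternatives gave values within the interval or equal to those reported. For mir-54 in replicate 2 no alternative was computed, because no summit lay within 100 bp of the optimal one. Within 200 bp the replicate 2 summit 36 bp downstream of mir-54 (33.0) would match it. The lack of a match there thus depends on the distance of 100 bp. The hairpin and 300 bp settings, and for the other miRNA genes the promoter window and the share without mir-55b, were added after seeing the data. No paired analysis was possible because there was 1 group. Depth is unknown, and the 2 replicates limit what can be said of spread.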

Other observations

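Of the summits of single replicates near the members, 4 had no pooled summit within 100 bp. In replicate 1 these lay 239 bp upstream of mir-51 (26.7, rank 2566) and 1581 bp upstream of mir-53 (12.3, rank 25136). In replicate 2 they lay 1245 bp downstream of mir-52 (19.5, rank 9578) and 36 bp downstream of mir-54 (33.0, rank 1193), the last being the one 115 bp from the optimal summit in the mir-54 hairpin. The 5 optimal regions with an annotated miRNA gene within 100 bp of the summit, 4 of them at members and 1 at mir-5549, had a median signal of 121. This is the value of mir-5549, and the 4 at members belong to a family chosen by the strength of its peaks. The median was 94.8 for the 458 with no miRNA, tRNA, snoRNA, snRNA or mitochondrial gene there and 114 for the 9 at snRNA genes. It was 125 for the 165 at tRNA genes, 215 for the 52 at snoRNA genes and 379 for the 11 mitochondrial ones. These medians are a description with no test.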
